A study of Mus musculus with 6 samples.

Results

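Heart muscle is not confined to the heart in the mouse. Sleeves of cardiac muscle run along the pulmonary veins into the lung, and their cells use the genes of atrial cardiomyocytes, so that RNA of mouse lung tissue can carry cardiac transcripts. The 10 genes Myh6, Myl7, Tnnt2, Tnni3, Actc1, Myl4, Nppa, Ryr2, Tnnc1 and Mybphl were taken by symbol from count tables of 31130 genes for 6 lung tumors. They were compared between 3 tumors of the LC model and 3 of the IP + LC model. In both models these were wild-type female C57BL/6 mice aged 6 to 8 weeks, all injected with cells of the mouse lung cancer line LLC (Lewis lung carcinoma), which expressed EGFP, into the left lung on day 14. The IP + LC mice had received bleomycin, which injures the lung and leads to interstitial pneumonia with fibrosis, at 2.0 mg/kg by oropharyngeal aspiration on day 0, and the LC mice had received saline. RNA was taken from the tumor tissue on day 21, 7 days after the cells. The labels do not say whether each tumor came from a separate mouse, so the p-values measure the spread between these samples, and a single cell line stands behind all tumors.

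Muscle contracts when myosin heads on the thick filament pull on actin of the thin filament. Calcium, released into the cytoplasm through the ryanodine receptor, binds to troponin C, and the troponin complex then shifts tropomyosin away from the sites on actin where myosin attaches. Atrial cardiomyocytes build this machine with their own forms of the myosin light chains and also make a blood pressure hormone, atrial natriuretic peptide.

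The libraries counted unique molecular identifiers (UMIs) at the 3′ ends of transcripts, so each molecule adds 1 count and levels were not divided by transcript length. They held 592733 UMIs in LC replicate 1 and 1336919 to 1631066 UMIs in the other 5 tumors. Levels are given as counts per 1000000 UMIs after scaling of the libraries (CPM), in which 3 UMIs correspond to 5.17 CPM in LC replicate 1 and to 1.75 to 2.54 CPM elsewhere. LC replicate 1 stood apart from the other LC tumors in more than depth. Its summed level of 8 proliferation markers was 764.6 CPM against 146.5 and 134.7 CPM in LC replicates 2 and 3 and 1290 to 1544 CPM in the IP + LC tumors. Its level of tested genes with transcripts of 5000 bases or more was at a median of 61.8% of the mean of LC replicates 2 and 3, against 127% for transcripts under 2000 bases. For several results, values without this tumor are also given. The labels call the material lung cancer cells, but the LC tumors held 49910 to 58770 CPM of 8 markers of airway epithelium, a cell type of normal lung.

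The data hold no position of the cells, so whether the cardiac transcripts came from pulmonary veins was not tested, and the genes are called cardiac muscle genes here. Of the markers that define this muscle, the atrial light chains Myl7 and Myl4 and the calcium pump regulator sarcolipin (Sln) were counted in every tumor. The cardiac transcription factor gene Nkx2-5 did not exceed 1 UMI in any tumor, and Nppa did not exceed 3.

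The promoter sequences of 4 members are shown because these genes were all called lower and hold short motifs known from muscle genes. All are RefSeq sequences of GRCm38.p6, written 5′ to 3′ on the gene's strand, from 250 bases before to 50 bases after the annotated start. Capitals mark matches to the GATA motif (AGATAA, with A or T as its opening and A or G as its closing letter, both strands), the M-CAT motif (CATTCC, both strands), the CArG box (both strands) and the TATA box (TATAAA, gene strand only). The regions are chr11:5898733-5899032 (minus strand) for Myl7, chr2:114052826-114053125 (minus strand) for Actc1, chr1:135836084-135836383 (plus strand) for Tnnt2 and chr14:54966558-54966857 (minus strand) for Myh6.
Myl7: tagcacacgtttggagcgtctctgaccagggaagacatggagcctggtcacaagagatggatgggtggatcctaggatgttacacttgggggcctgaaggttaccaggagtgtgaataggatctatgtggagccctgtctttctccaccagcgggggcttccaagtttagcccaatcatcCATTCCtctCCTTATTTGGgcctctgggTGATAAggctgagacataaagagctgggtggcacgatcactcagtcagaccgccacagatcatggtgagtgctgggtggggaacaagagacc
Actc1: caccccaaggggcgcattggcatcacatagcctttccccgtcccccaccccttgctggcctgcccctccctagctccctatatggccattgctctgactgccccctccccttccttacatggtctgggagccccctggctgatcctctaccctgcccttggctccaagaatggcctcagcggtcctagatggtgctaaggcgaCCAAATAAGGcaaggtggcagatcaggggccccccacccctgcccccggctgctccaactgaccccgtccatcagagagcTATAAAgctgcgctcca
Tnnt2: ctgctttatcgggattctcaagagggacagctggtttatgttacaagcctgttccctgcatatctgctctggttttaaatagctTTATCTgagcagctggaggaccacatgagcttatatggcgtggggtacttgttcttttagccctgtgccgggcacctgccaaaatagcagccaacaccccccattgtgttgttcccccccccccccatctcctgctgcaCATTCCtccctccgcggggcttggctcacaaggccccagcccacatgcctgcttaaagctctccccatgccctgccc
Myh6: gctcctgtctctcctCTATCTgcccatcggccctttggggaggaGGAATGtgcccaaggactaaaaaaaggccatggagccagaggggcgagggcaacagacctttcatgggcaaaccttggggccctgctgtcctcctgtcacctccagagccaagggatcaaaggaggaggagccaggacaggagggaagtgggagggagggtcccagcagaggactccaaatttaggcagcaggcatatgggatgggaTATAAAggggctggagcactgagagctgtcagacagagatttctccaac
Myl7 held the M-CAT motif, the CArG box and the GATA motif in a row, from 70 to 37 bases before the start and without overlap. The CArG box, which the serum response factor binds, was found in 2 of the 10 members (Myl7 and Actc1) and in 1.63% of 32851 RefSeq promoters of the same length. The M-CAT motif, known from Tnnt2, was found in 4 members (Tnnt2, Myl7, Tnnc1 and Myh6) and in 14.7% of all promoters, and the GATA motif in 5 members and 29.8%. The TATA box was present in 3 members (Actc1, Myh6 and Nppa) and 8.32% of promoters, in Actc1 and Myh6 after the annotated start, and the MEF2 motif in 0 members and 3.19%. These matches are descriptions of the windows, and no binding was measured.

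Summed over the 10 genes, cardiac transcripts were about 5 times as abundant in the LC as in the IP + LC tumors. The summed level was 998.7, 2141 and 1577 CPM in LC replicates 1, 2 and 3 and 304.5, 164.6 and 408.8 CPM in IP + LC replicates 1, 2 and 3. The groups did not overlap, and the lowest LC tumor was replicate 1. The means were 1572 ± 571 and 292.6 ± 123 CPM (SD, n = 3), a 5.37-fold difference. It was 6.35-fold without LC replicate 1 and 4.92-fold as a share of the UMIs without mitochondrial genes. These sums rest on 580, 2733 and 1861 UMIs in the LC tumors and on 420, 282 and 563 UMIs in the IP + LC tumors. In bulk tissue, fewer cardiac muscle cells and less RNA per cell cannot be told apart. With 3 tumors a group, an exact permutation test of a single value cannot go below 0.1, so the genes were tested by a fit across all genes.

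Of the 10 members, 7 had enough UMIs for the test, and all 7 were called lower in the IP + LC tumors. The test used was the quasi-likelihood test of edgeR, its p-values were adjusted by Benjamini and Hochberg's method over 11240 genes, and 0.1 was the limit. In that test 36.4% of all genes were called, 19.6% lower and 16.8% higher, and the median log2 fold change of all tested genes was 0.018. The 7 log2 fold changes lay between -2.85 and -2.01, with a median of -2.14. In 6 of the 7, all IP + LC tumors were below all LC tumors, as in 21.5% of all tested genes, and the exception was Myh6. Ryr2, Mybphl and Nppa did not pass the filter on low counts.

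**Figure D1:**
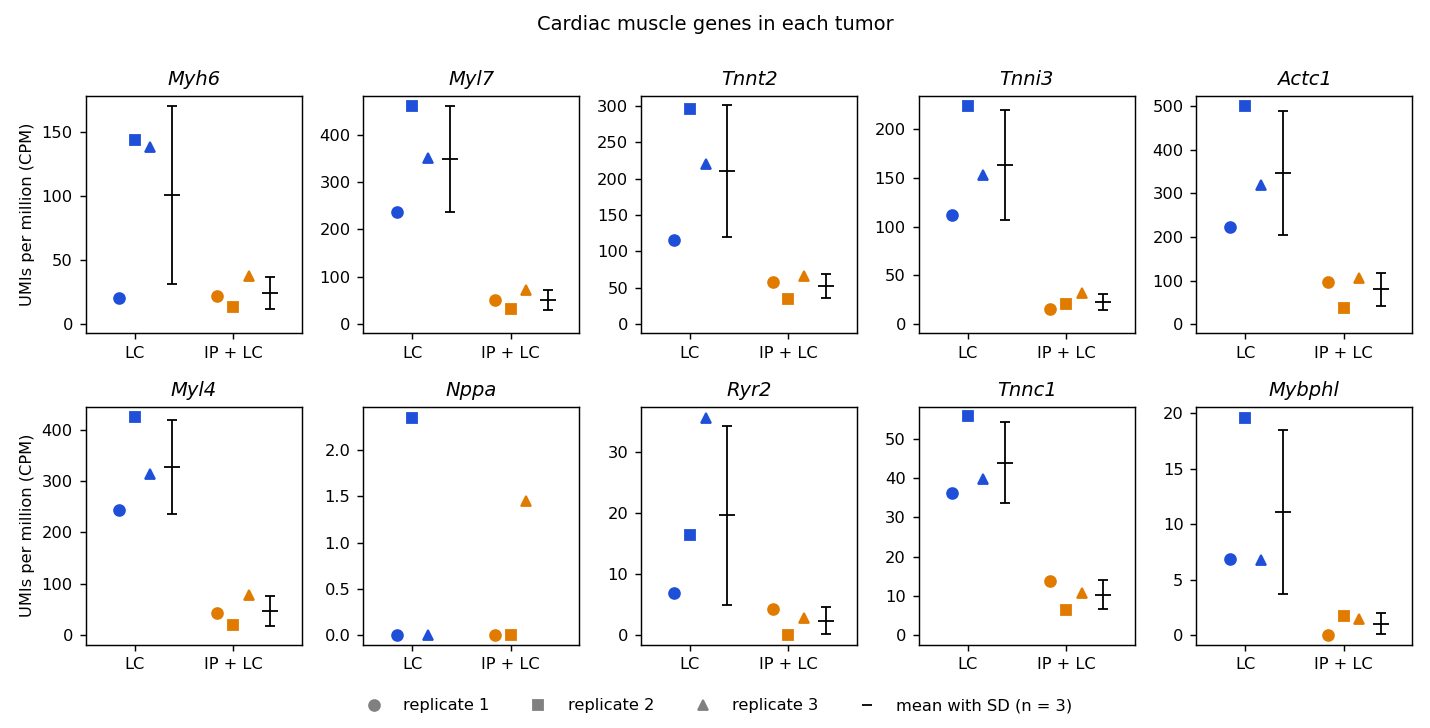
Level of each of the 10 genes in each tumor in CPM on linear axes of different height, with blue points for LC and orange points for IP + LC, one marker shape per replicate number (the numbers were not used to pair the tumors), and the mean with SD beside each group except for Nppa, which held 5 UMIs in all. LC replicate 1 is below the other LC tumors and above the IP + LC tumors for Myl7, Tnnt2, Tnni3, Actc1, Myl4 and Tnnc1, but at 20.7 CPM, inside the IP + LC range, for Myh6.

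Among the thick filament genes, Myl7 (ENSMUSG00000020469) encodes the regulatory light chain of atrial myosin and is located on chromosome 11 (GRCm38, 5896637 to 5898782). There were 137, 587 and 415 UMIs in LC replicates 1 to 3 and 69, 53 and 99 UMIs in IP + LC replicates 1 to 3, or 236, 460 and 352 CPM against 50.03, 30.9 and 71.9 CPM. The lowest LC tumor, at 236 CPM, was above the highest IP + LC tumor, at 71.9 CPM. Myl7 changed by -2.79 on the log2 scale (standard error 0.36, adjusted p = 0.00138). Myl4 (ENSMUSG00000061086, chromosome 11, 104550663 to 104595753) encodes the essential light chain of atrial myosin, the second of the pair of light chains on each head. Its levels were 243, 424 and 314 CPM in the LC tumors and 44.2, 20.4 and 79.2 CPM in the IP + LC tumors, from 35 to 541 UMIs, without overlap. The log2 fold change of Myl4 was -2.78 (standard error 0.44, adjusted p = 0.00304), close to that of Myl7.

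Myh6 (ENSMUSG00000040752, chromosome 14, 54941921 to 54966927) encodes the alpha myosin heavy chain, the motor of atrial muscle and of the adult mouse ventricle. Its counts were 12, 183 and 163 UMIs in the LC tumors and 30, 23 and 52 UMIs in the IP + LC tumors. In CPM these were 20.7, 143 and 138 against 21.8, 13.4 and 37.8, so that LC replicate 1 lay within the range of the IP + LC tumors. Myh6 changed by -2.12 on the log2 scale (standard error 0.60, adjusted p = 0.0300). Without LC replicate 1 it was -2.55 (adjusted p = 1.62e-06). The call of Myh6 was lost when LC replicate 2 (adjusted p = 0.117), IP + LC replicate 1 (0.123) or IP + LC replicate 2 (0.144) was left out. The counts of Myh6 are also uncertain, because 53.6% of the last 500 bases of its transcript match Myh7 or neighboring RNAs (Mhrt, Gm29015, Gm31251 and Gm49130) at 95% identity or more over at least 81 bases. Myh6 had the highest share of such sequence in its 3′ end after Nppa.

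Mybphl (ENSMUSG00000068745, chromosome 3, 108364911 to 108380057), a relative of myosin binding protein C that is typical of atrial muscle, had 4, 25 and 8 UMIs in the LC tumors and 0, 3 and 2 in the IP + LC tumors. The groups did not overlap, but every IP + LC tumor was at or below the floor of 3 UMIs. Pooled over the tumors, 37 of 3328873 UMIs in the LC group and 5 of 4312027 in the IP + LC group gave a ratio of shares of 9.59 (95% interval 3.76 to 31.2, exact, for counting error only). In the fit with no filter on low counts, which called 8.51% of 29423 genes lower, Mybphl passed (adjusted p = 0.000286), and DESeq2 called it too (0.0138). The fit with no filter gave smaller adjusted p-values for every tested member, such as 3.17e-10 for Myh6 against 0.03 with the filter.

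Of the thin filament genes, Actc1 (ENSMUSG00000068614, chromosome 2, 114047282 to 114053548) encodes cardiac alpha actin and had the most UMIs of the members, 1484 over all tumors. It was at 222, 501 and 318 CPM in the LC tumors and at 96.4, 36.8 and 105 CPM in the IP + LC tumors. The groups did not overlap, and IP + LC replicate 2 was the lowest, as it was for Myl7 and Myl4. Actc1 changed by -2.14 on the log2 scale (standard error 0.43, adjusted p = 0.00750).

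The 3 cardiac troponins regulate the access of myosin to actin. Tnnt2 (ENSMUSG00000026414, chromosome 1, 135836354 to 135852260), which encodes the subunit that holds the complex on tropomyosin, had 115, 295 and 220 CPM in the LC tumors and 58.01, 34.4 and 66.1 CPM in the IP + LC tumors. Its log2 fold change of -2.01 was the smallest of the 7 (standard error 0.37, adjusted p = 0.00539). Tnni3 (ENSMUSG00000035458, chromosome 7, 4518305 to 4524229), which encodes the inhibitory subunit, was at 112, 224 and 153 CPM against 15.95, 20.4 and 31.95 CPM. The log2 fold change of -2.85 was the largest of the 7 (standard error 0.34, adjusted p = 0.00120), and 4.17% of its exonic sequence overlaps Dnaaf3 on the same strand. Tnnc1 (ENSMUSG00000091898, chromosome 14, 31208312 to 31211729), the calcium sensor shared by cardiac and slow skeletal muscle, was at 36.2, 55.6 and 39.8 CPM against 13.8, 6.42 and 10.9 CPM (log2 fold change -2.12, standard error 0.32, adjusted p = 0.00236). For all 3 troponins the LC tumors were above the IP + LC tumors without overlap, while the difference between the largest and the smallest fold change was not tested in the fit.

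Ryr2 (ENSMUSG00000021313, chromosome 13, 11553102 to 12106945) encodes the cardiac ryanodine receptor, the channel that releases calcium from the sarcoplasmic reticulum. It had 4, 21 and 42 UMIs in the LC tumors and 6, 0 and 4 in the IP + LC tumors, or 6.89, 16.5 and 35.6 CPM against 4.35, 0 and 2.90 CPM. LC replicate 1 was only slightly above IP + LC replicate 1, and the value of 0 allows up to 3 UMIs, or 1.75 CPM. The pooled ratio of shares was 8.68, LC over IP + LC (95% interval 4.44 to 18.9, for counting error only). Without LC replicate 1, Ryr2 passed the filter, through the LC tumors in which it was high, and had a log2 fold change of -3.46, which is given as a description since that filter favors a difference. The 7 members tested with all tumors were all called lower without LC replicate 1, in a fit that called 57% of its 11748 genes and 28.7% lower.

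Nppa (ENSMUSG00000041616, chromosome 4, 148000722 to 148002079), the gene of atrial natriuretic peptide and among the most abundant transcripts of the atria, was at 0, 3 and 0 UMIs in the LC tumors and 0, 0 and 2 UMIs in the IP + LC tumors. No fold change is given, since no tumor exceeded the floor. Nppa shares 61.6% of its transcript with the antisense gene Gm13054, and whether the counting used the strand is not given in the sources used here, so its count is uncertain. Nppb, the gene of the related B-type peptide, had 0, 5 and 1 UMIs in the LC and 5, 10 and 4 UMIs in the IP + LC tumors and was not tested either. The receptors of these peptides were counted well enough, and all 3 were lower, with log2 fold changes of -0.72 for Npr1, -2.001 for Npr2 and -1.89 for Npr3 (adjusted p = 0.0377, 0.00162 and 0.0338). Only Npr2 was called when IP + LC replicate 2 or IP + LC replicate 3 was left out, and 2 of the 3 when any other tumor except LC replicate 1 was.

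The make-up of the cardiac transcripts was compared within the tumors, where library depth cancels. Of the UMIs of the 10 genes, Myl7 made up 21.5 to 23.6% in the LC tumors and 16.4 to 18.8% in the IP + LC tumors, and Tnnt2 made up 11.6 to 14% and 16.2 to 20.9%. Myl4 made up 19.8 to 24.3% and 12.4 to 19.4%. The share of Actc1 was 20.2 to 23.4% and 22.3 to 31.7%, and that of Tnni3 9.73 to 11.2% and 5.24 to 12.4%. The share of Myh6 was 2.07% in LC replicate 1 (exact 95% interval 1.07 to 3.59%) and 6.70 to 9.24% in the other 5 tumors.
As ratios of single genes, Myl7 to Tnnt2 was 2.04, 1.56 and 1.60 in the LC tumors and 0.863, 0.898 and 1.09 in the IP + LC tumors. Of the 21 pairs of the 7 tested members, 7 (33.3%) had ratios that did not overlap between the groups. Among the 2392578 pairs of all 2188 genes that were called lower and had a UMI in every tumor, this share was 31.6%, near that of the members, and the ratios were not tested singly.

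**Figure D2:**
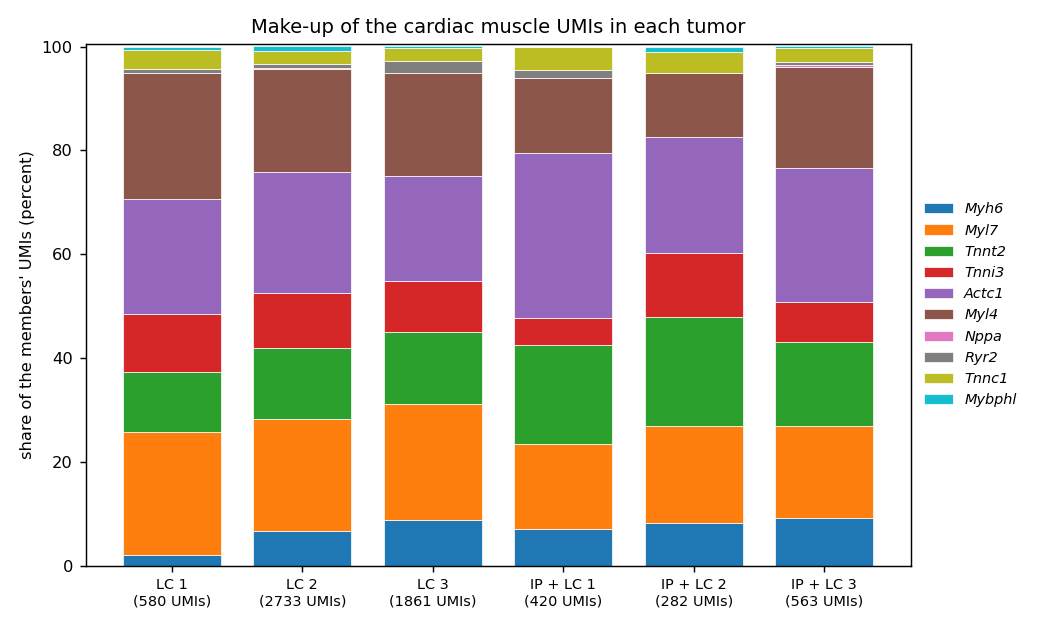
Share of each gene in the UMIs of the 10 cardiac muscle genes, as stacked bars that sum to 100% in each tumor, with the number of UMIs under each bar. Myl7, Actc1, Myl4, Tnnt2 and Tnni3 fill most of every bar, and Myh6 is thin in LC replicate 1, at 2.07%.

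The gap of LC replicate 1 was unequal among the members. Relative to the mean of LC replicates 2 and 3, it held 14.7% of Myh6 and 26.5% of Ryr2, whose longest coding transcripts have 6113 and 16814 bases. It held 44.8% (Tnnt2) to 75.8% (Tnnc1) of the other 6 tested members, with transcripts of 590 to 1473 bases. The same tumor held 8.25% of Ttn, the gene of the giant protein titin, with the longest transcript of the cardiac lists at 106824 bases and with 9, 191 and 267 UMIs in the LC tumors. Over genes called lower in the fit, the median was 91.2% for transcripts under 2000 bases (749 genes) and 57.8% for transcripts of 5000 bases or more (420 genes). The IP + LC tumors held 12.07 to 21.7% of the tested members by the same measure, with Myh6 at 17.3%. The part of transcript length or RNA quality in the values of LC replicate 1 was not tested.

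**Figure D3:**
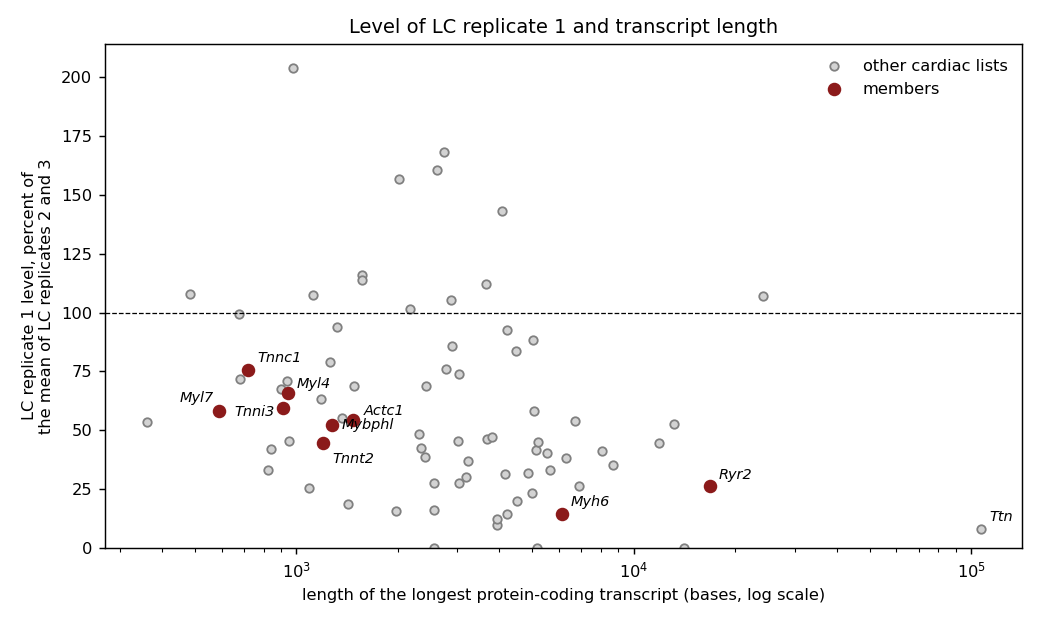
Level in LC replicate 1 as a percentage of the mean of LC replicates 2 and 3 (linear axis) against the length of the longest protein-coding transcript (log axis), for 9 members in red and for the other genes of the cardiac lists in gray, where LC replicates 2 and 3 held at least 20 UMIs together. The dashed line marks 100%, the short members sit between 44.8 and 75.8%, and Myh6, Ryr2 and Ttn are at 14.7, 26.5 and 8.25%.

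To place the members among muscle types, 9 of them (all but Tnnc1) were set beside related genes, most of which are used in the ventricle or in skeletal muscle. Over all 6 tumors, Myl7 had 1360 UMIs and the ventricular light chain Myl2 had 2, both in IP + LC replicate 3. Myl4 had 1257 UMIs against 47 of the ventricular Myl3, and Myh6 had 463 against 16 of Myh7, the heavy chain of slow muscle, with the limit on shared sequence given above. The cardiac actin Actc1 had 1484 UMIs and the skeletal actin Acta1 had 3. The cardiac Tnni3 had 633 UMIs, against 4 of the slow skeletal Tnni1 and 29 of the fast skeletal Tnni2. Tnnt2 had 934 against 27 of Tnnt1 and 41 of Tnnt3. Of 20 skeletal muscle genes in the files, 13 did not exceed 3 UMIs in any tumor. The exceptions to the order were Mybpc3, with 46 UMIs against 42 of Mybphl, and Nppb, with 25 against 5 of Nppa. For Ryr2, 77 UMIs stood against 19 of the skeletal Ryr1.

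**Figure D4:**
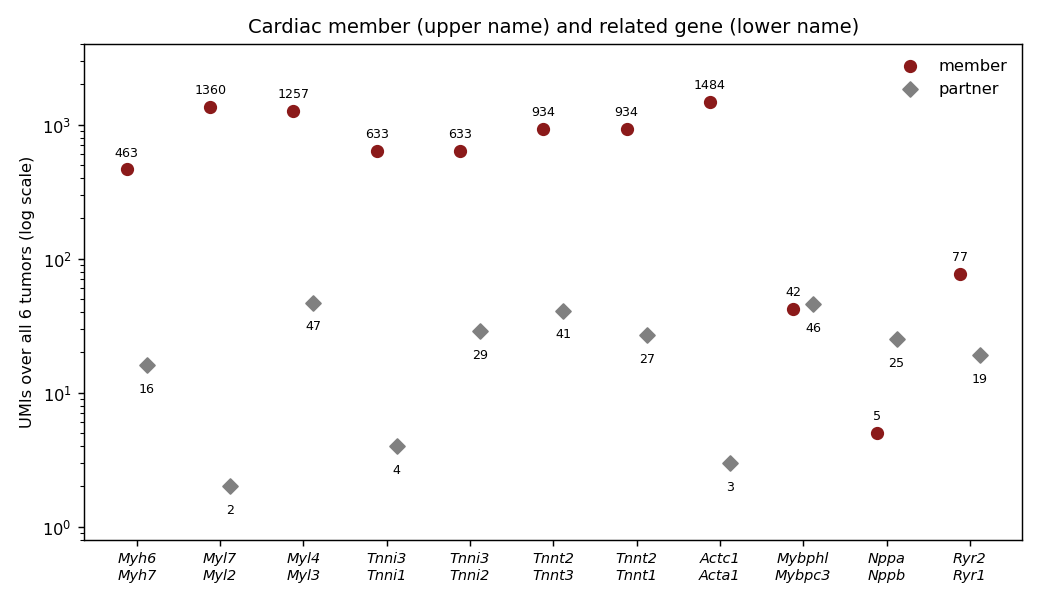
UMIs over all 6 tumors on a log axis for the cardiac members (red circles, upper name) and for the related gene used in ventricle, skeletal muscle or other cells (gray diamonds, lower name). The member is above the related gene for Myh6, Myl7, Myl4, Tnni3, Tnnt2, Actc1 and Ryr2, and below it for Mybphl and Nppa.

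Other genes of cardiac muscle were taken from 7 lists that hold 102 genes besides the members. In the files 100 of them were found, 49 were tested, 36 were called lower and 1 higher, with a median log2 fold change of -1.45. In this fit 19.6% of all genes were called lower and 16.8% higher. Of the same 49, 42 were called lower and 3 higher (Gja1, Ankrd1 and Srf) without LC replicate 1, in the fit that called 57% of all genes and 28.7% lower. The genes called lower were 24 of 50 tested without LC replicate 2, 28 of 52 without LC replicate 3 and 28 of 62 when IP + LC replicate 2 was left out, where 13.6%, 15.2% and 11.6% of all genes were. Of 14 tested genes of the sarcomere and the Z-disc, which anchors the thin filaments, 10 were called lower and 0 higher, and 6 of 14 were called lower without LC replicate 2 (13.6% of all genes) or with a replicate block (16.1%). Without LC replicate 1, 10 of the same 14 were lower and Ankrd1 was higher. The largest decreases on this list were those of the Z-disc genes Myoz2 (log2 fold change -3.42, adjusted p = 0.000807), Csrp3 (-3.08, 0.00157) and Tcap (-2.97, 0.00268). Myoz2 had 21, 80 and 61 UMIs in the LC tumors and 8, 6 and 7 UMIs in the IP + LC tumors. Myoz2, Csrp3 and Tcap each had fewer than 10 UMIs in an IP + LC tumor. With at least 10 UMIs in every library they were not tested, and 3 of 7 genes of the list were lower (21% of all genes). Ttn was at -2.14 (adjusted p = 0.0413, and -2.62 with 2.6e-07 without LC replicate 1). Ttn was not called lower when any other single tumor was left out or with a replicate block. LC replicate 1, at 15.5 CPM of Ttn, was below the IP + LC tumors (22.18 to 36.25 CPM). The crosslinker gene Actn2 was at -2.36 (adjusted p = 0.00764), Nebl at -1.76 (0.00827) and the intermediate filament gene Des, also used by smooth muscle, at -1.41 (0.00411).
The 4 that did not pass are genes that other cells use too, Tpm1 (log2 fold change -0.01, adjusted p = 0.979), Pdlim5 (0.34, 0.214), Fhl2 (0.33, 0.329) and Ankrd1 (0.54, 0.253, and 0.75 with 0.0268 without LC replicate 1).

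Of the calcium handling genes, 7 were tested and 5 were lower. When LC replicate 1 was left out, 6 of these 7 were called lower (28.7% of all genes were), Atp2a2 with a log2 fold change of -0.35 (adjusted p = 0.0922) among them. The number was 3 of 7 when LC replicate 2 or LC replicate 3 was left out or with a replicate block (13.6%, 15.2% and 16.1% of all genes), and 3 of 4 with at least 10 UMIs in every library (21%). Without IP + LC replicate 2, only S100a1 and Sln of the same 7 were called lower (11.6% of all genes). Sln, whose product restrains the calcium pump in atrial muscle, had the largest change, from 138, 166 and 127 CPM in the LC tumors to 9.43, 7.004 and 21.8 CPM in the IP + LC tumors (log2 fold change -3.51, standard error 0.37, adjusted p = 0.000859). Its LC levels stood close together, with LC replicate 1 between the other LC tumors. The pump gene Atp2a2 itself, which most cells express, was at 257, 357 and 258 CPM against 277, 214 and 232 CPM, so that the groups overlapped (log2 fold change -0.27, adjusted p = 0.387). Jph2, which links the membranes where calcium is released, was lower (-1.71, adjusted p = 0.0241), as was the calcium sensor gene S100a1 (-1.45, 0.00253). Cacna1c, the pore of the L-type calcium channel, was at -1.40 (adjusted p = 0.0510). Trdn, Casq2, Pln and Hrc were not tested, and their UMIs over the LC tumors were 4, 42 and 42 for Trdn, 2, 31 and 22 for Casq2, 4, 25 and 15 for Pln and 4, 28 and 16 for Hrc, with no more than 8 in any IP + LC tumor.

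Of the energy genes of heart and oxidative muscle, all 11 tested were called lower, with a median log2 fold change of -1.69. Ckmt2, the mitochondrial creatine kinase of striated muscle, was at -3.07 (adjusted p = 0.00221). The muscle forms of cytochrome oxidase subunits were Cox7a1 (-2.47, adjusted p = 0.00137), Cox6a2 (-2.30, 0.00157) and Cox8b, with 5, 27 and 13 UMIs in the LC tumors against 0, 0 and 3 (adjusted p = 0.00602). The fatty acid binding gene Fabp3 and the myoglobin gene Mb were not tested, at 2, 19 and 7 and at 1, 8 and 3 UMIs in the LC tumors. On this list 7 of 11 genes were called lower when LC replicate 2, IP + LC replicate 1 or IP + LC replicate 2 was left out (13.6%, 13.4% and 11.6% of all genes), and 4 of 4 with at least 10 UMIs in every library (21%).

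Of 19 ion channel and gap junction genes, 5 were tested and 3 were lower. Without LC replicate 1, 4 of these 5 were lower, where 28.7% of all genes were, and 2 of 5 were lower when LC replicate 2 (13.6% of all genes) or LC replicate 3 (15.2%) was left out. With at least 10 UMIs in every library only Gja1 was tested, and it was called higher. Kcnk3, a potassium channel of atrial muscle, was lower (log2 fold change -2.37, adjusted p = 0.00398), as were Popdc2 (-1.79, 0.00902) and Gja5, the connexin of atrium, conduction system and arterial endothelium (-1.14, 0.0617). Gja1, the connexin of ventricular muscle and of many other cells, was the only gene of these lists called higher in the main fit. It was at 34.4, 114 and 113 CPM in the LC tumors and 231, 168 and 162 CPM in the IP + LC tumors (log2 fold change 1.06, adjusted p = 0.0677). This call was not stable, since 0 genes of the lists were called higher with a replicate block, at a limit of 0.05, or when LC replicate 2 or any of the IP + LC tumors was left out. With all tumors, Pdlim5 was also called higher with library size only, Hcn2 with no filter on low counts, and Ankrd1, Pdlim5 and Srf with voom sample weights.
Of the transcription factors, 4 of 9 tested were lower and 0 higher. Without LC replicate 1, 8 of the same 9 were lower and Srf was higher (log2 fold change 0.75, adjusted p = 0.0473), where 28.7% of all genes were lower. The 4 of the full comparison were Hopx (-2.29, adjusted p = 0.00225), which alveolar type 1 cells also express, Hey1 (-2.21, 0.00353), Tbx3 (-2.10, 0.0121) and Gata6 (-1.89, 0.00643), and all of these are also used outside the heart. Tbx5, which acts in atrial and lung development, had 2, 54 and 34 UMIs in the LC tumors and 16, 20 and 23 UMIs in the IP + LC tumors and did not pass (log2 fold change -1.05, adjusted p = 0.179), but was called lower without LC replicate 1 (-1.42, adjusted p = 0.000772). Gata4 did not exceed 7 UMIs and Bmp10, an atrial growth factor gene, had 1 UMI in all.

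**Figure D5:**
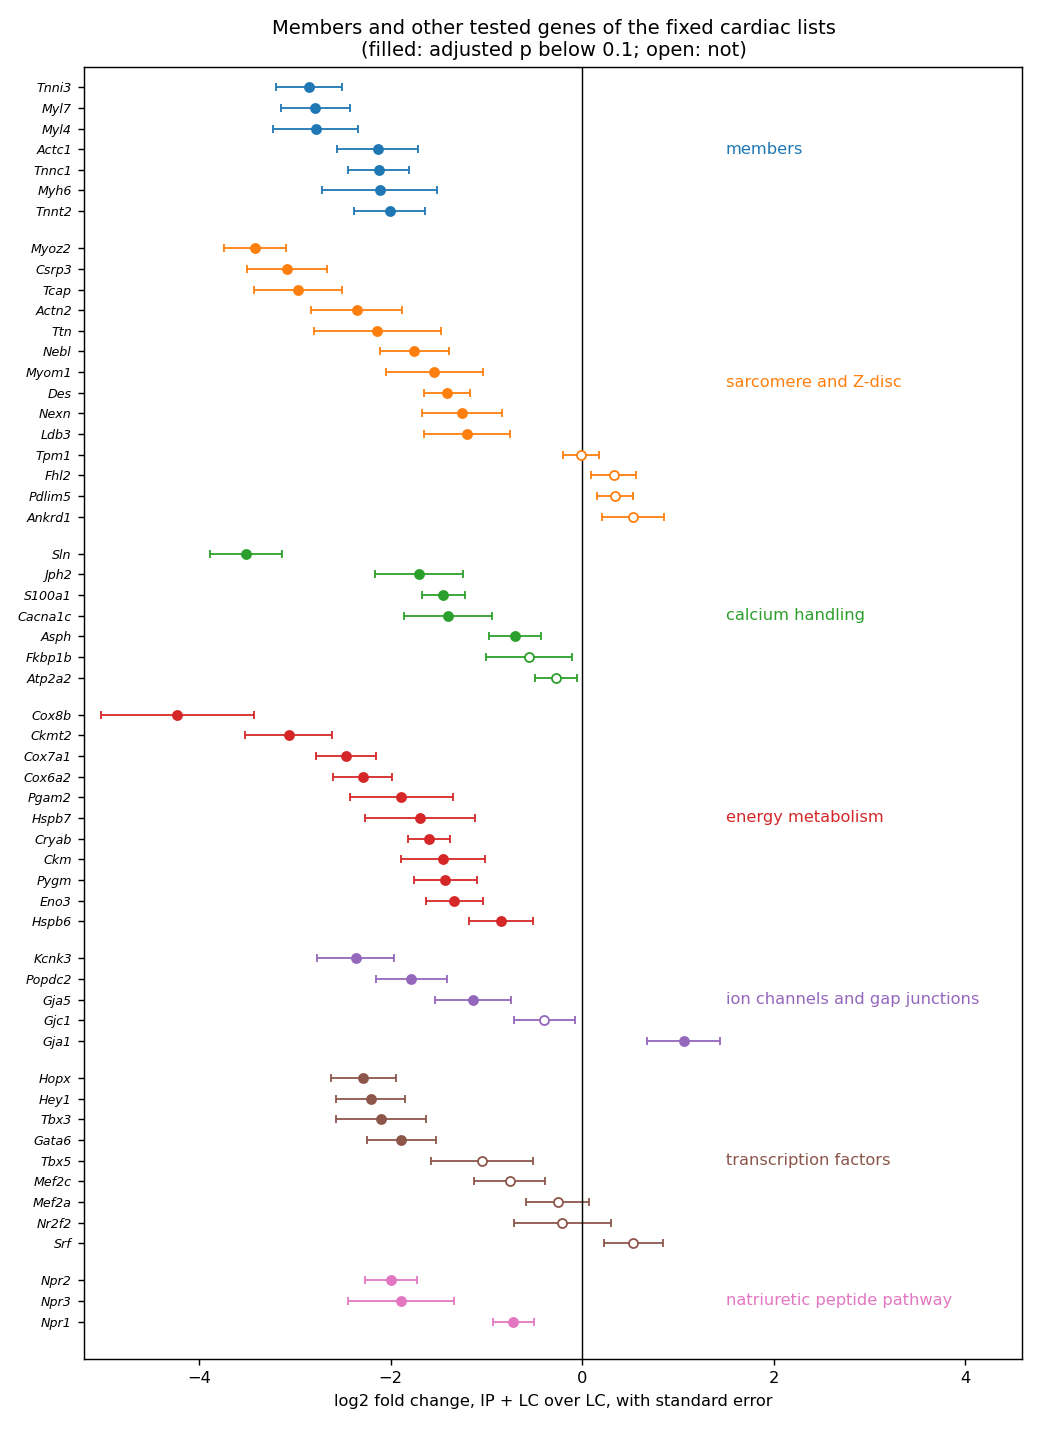
Log2 fold change of IP + LC over LC with its standard error for the 7 tested members and the 49 other tested genes of the cardiac lists, grouped by list, with filled points for adjusted p below 0.1. The members lie between -2.85 and -2.01, Gja1 is the only filled point above 0, and the fitted value of Cox8b depends on 0, 0 and 3 UMIs in the IP + LC tumors.

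Genes of other normal lung cells moved in the same direction as the members. Of all tested genes, 19.6% were called lower and 16.8% higher. The fit called 8 of 8 tested airway epithelium markers lower (median log2 fold change -3.14), 11 of 11 endothelial markers (-1.73), 10 of 12 alveolar markers (-1.83), 9 of 10 smooth muscle markers (-1.91), 5 of 5 mesothelial markers (-2.09) and 4 of 4 adipocyte markers (-2.97). The median of the 7 tested members, -2.14, lay within the range of these medians. The summed endothelial level was 2001 to 3074 CPM in the LC tumors and 635.7 to 767.5 CPM in the IP + LC tumors, and that of smooth muscle was 967.8 to 1511 and 315.8 to 421.1 CPM. The erythroid markers, a sign of blood, were lower in 4 of 4 (median -1.66), at 1746 to 7448 and 770.8 to 2148 CPM. The proliferation markers were higher in 6 of 8 and lower in 0 (median 1.87). The part of these cells, and of the share of normal lung in the tissue, in the lower level of the cardiac genes was not tested.

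Likeness to the members over the tumors was measured as Pearson's r of log2(CPM + 4) with the mean of the tested members. The r of single members with this mean was 0.969 to 0.995, except for Myh6 at 0.869. Outside the members, the 10 genes most like it were Mlf1 (r = 0.998), Scd1, a fatty acid desaturase, Sntn, a gene of motile cilia, Chchd10, Dmkn, Efemp1, Smad6, an inhibitor of BMP signaling, Rbp4, a retinol carrier, Chp1 and Aldh1a7 (r = 0.995). None of these 10 was on a cardiac list, and 1 of the first 50 was (Tcap), while 49 of the 11233 tested genes outside the members (0.436%) were. The values describe only 6 tumors in 2 groups that share their libraries, and no test was made of them.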

How the data were processed

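The authors prepared 3′ libraries of tumor RNA by bulk RNA barcoding and sequencing, with a 10-base UMI and an 81 bp insert read. Per the study's methods and the submitters' processing notes, UMIs were extracted with UMI-tools 1.1.1, reads were trimmed with Trim Galore 0.6.7, aligned to GRCm38 with HISAT2 2.2.1, assigned with featureCounts 2.0.1 and counted as distinct UMIs. The annotation release and strand setting are not given in the sources used here. The deposited values were raw counts of UMIs per gene, 1 table per tumor.
Genes were filtered with filterByExpr (minimum count 10, minimum total 15), scaled by TMM (factors 0.905 to 1.07) and tested by the quasi-likelihood test of edgeR 4.0.16 in R 4.3.3 (3 against 3 tumors, no block, two-sided, Benjamini-Hochberg limit 0.1). CPM values use the TMM-scaled totals of the tested genes. The procedure was tested on simulated data. Members and lists were chosen with earlier results of these data known. The genes named are the members, the most abundant genes of each list, a fixed set of cardiac genes and the 10 most like the members; other genes named within the lists, such as Myoz2, Ckmt2, Kcnk3 and Gata6, were chosen after their values were seen. The deviations of same-numbered tumors from their group means had r of 0.026, -0.12 and 0.112, within the range of all pairs (-0.142 to 0.126). The numbers were therefore not used as pairs in the main fit. With 3 tumors a group, these values cannot exclude a pairing or a shared batch. Positions and transcript lengths came from GENCODE M21 on GRCm38, promoters from RefSeq, and shared sequence from blastn 2.17.0+. Alternatives were other scalings and filters, DESeq2 1.42.0, limma 3.58.1 voom, a replicate block, a limit of 0.05, thinning to 592733 UMIs and leaving out each tumor. Columns of annotation in the files were used for names only. Intervals cover counting error only.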

Additional observations from a re-analysis of the deposited data

How the results depend on the processing

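The 7 tested members kept a negative log2 fold change and were called under the other scalings, DESeq2, voom, the stricter filter, the limit of 0.05 and thinning. With each tumor left out, 6 or 7 of these 7 members were called, in fits that called 11.6 to 28.7% of all genes lower. Ryr2, which passed the filter only in some of these fits, is not counted. Myh6 was the one that lost its call (log2 fold change -1.77 to -2.01, adjusted p = 0.117 to 0.144, when LC replicate 2, IP + LC replicate 1 or IP + LC replicate 2 was left out). With a replicate block the members called were 7 of 7, the genes called 3410, and the other cardiac genes called lower 30 of 49, where 16.1% of all genes were called lower. The log2 difference of the summed level lay between -2.75 and -2.14 with each tumor left out. The count of all genes called, 4088, was 6394 with voom sample weights, 2357 after thinning and 2265 to 6691 with each tumor left out (the lowest value belongs to IP + LC replicate 2 and the highest to LC replicate 1; it was 2585 for LC replicate 2 and 2660 for IP + LC replicate 1). The other cardiac genes called lower, 36, were 14 of 24 with at least 10 UMIs in every library and 21 of 36 after thinning, where fewer genes were tested. In these fits 21% and 14.9% of all genes were called lower. With library size only, the median log2 fold change of all genes moved from 0.018 to 0.176, 2520 genes were called higher and 1800 lower (1885 and 2203 with TMM), and the 7 members stayed lower. Depth limits Ryr2, Mybphl and Nppa, and no interval covers more than counting error.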
